A study of Mus musculus with 8 samples.

Results

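Of the 1181 miRNA precursors listed for these myoblast libraries, 10 were taken by name because their miRNAs mark cell types other than muscle. They were the endothelial mmu-mir-126a and mmu-mir-126b, the blood precursors mmu-mir-150, mmu-mir-223 and mmu-mir-144, and the epithelial mmu-mir-205, mmu-mir-203, mmu-mir-200a, mmu-mir-200b and mmu-mir-200c (mmu for mouse, left out hereafter). Their detection and level served as a purity check of cells labelled as myoblasts, the muscle precursor cells that multiply and fuse into fibres. The libraries came from 4 old and 4 young C57BL/6J mice with no treatment or altered allele named, 1 small RNA library per mouse as the labels number them (old 1 to old 4, young 1 to young 4). The labels give neither ages in months nor the way in which the myoblasts were isolated or grown. No library of endothelium, blood or epithelium was part of the series, so the levels cannot be turned into shares of cells. In such bulk samples, fewer cells of a type and less of a miRNA per cell cannot be told apart.

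A miRNA precursor is a hairpin RNA that is cut to short mature strands. The seed of a mature strand (bases 2 to 8) largely sets which mRNAs it represses. miR-126 is the best known endothelial miRNA and supports vessel growth and integrity. Among blood miRNAs, miR-150 is abundant in mature lymphocytes, miR-223 in granulocytes and other myeloid cells, and miR-144, made together with miR-451, in developing red cells. miR-205 and miR-203 are typical of skin and other stratified epithelia, where miR-203 promotes the differentiation of keratinocytes, and the miR-200 family holds cells in an epithelial state by repressing Zeb1 and Zeb2.

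Mature sequences of the markers are shown first because their seeds define the families, and because the pair at the mir-126 locus shares its bases. RefSeq (GRCm38.p6, the same build as mm10) had a mature sequence for 10 of 10 precursors and a hairpin for 9. For mir-150 and mir-126a it held no 5p arm. The seeds shown for them are those of the 3p arms and do not stand for their 5p arms. Capitals mark the seed, and sequences run 5′ to 3′.
miR-126a-3p: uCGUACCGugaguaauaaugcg
miR-126b-5p: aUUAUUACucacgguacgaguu
miR-150-3p: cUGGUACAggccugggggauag
miR-223-3p: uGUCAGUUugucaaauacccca
miR-144-3p: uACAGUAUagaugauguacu
miR-205-5p: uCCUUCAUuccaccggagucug
miR-203-3p: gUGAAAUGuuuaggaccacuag
miR-200a-3p: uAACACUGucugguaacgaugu
miR-141-3p: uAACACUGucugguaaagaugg
miR-200b-3p: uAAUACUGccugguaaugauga
miR-200c-3p: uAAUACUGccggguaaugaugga
miR-429-3p: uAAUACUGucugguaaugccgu
The miR-200 family falls into 2 seed groups. miR-200a and miR-141 share the seed AACACUG, and miR-200b, miR-200c and miR-429 share AAUACUG, and the seeds of the groups differ at 1 base. The family lies in 2 clusters: mir-200b, mir-200a and mir-429 on chromosome 4 (156053905 to 156055750, minus strand, mm10), within introns of Ttll10, and mir-200c and mir-141 on chromosome 6 (124717914 to 124718390, minus strand). Between neighbouring precursors there are 695 and 908 bases on chromosome 4 and 336 bases on chromosome 6. Among the arms shown, the other epithelial, endothelial and blood markers share no seed with each other.

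The mir-126a hairpin is printed next with the 58 bases that mir-126b covers on the opposite strand in capitals.
mir-126a hairpin: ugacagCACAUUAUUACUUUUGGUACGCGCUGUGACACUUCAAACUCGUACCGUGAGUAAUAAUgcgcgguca
It lies on chromosome 2 (26591357 to 26591429, plus strand, mm10), within Egfl7, in a stretch that is an exon only of annotated retained-intron transcripts of that gene, and mir-126b lies inside it (26591363 to 26591420, minus strand). Only 15 of its 73 bases are outside mir-126b, and miR-126a-3p and miR-126b-5p are complementary over 19 bases.

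Values are log2 abundances as the authors deposited them, floored at 0. The low values step as RPKM would (reads scaled by precursor length and by library depth), and on that reading each value was turned back into reads. Library sizes were then 25.1 to 28.0 M reads in the old group and up to 39.4 M in the young group, each young library being larger than each old one. A listed 0 stands for a linear value of at most 1, that is at most 1 to 4 reads for the markers, so it sets a limit and does not show absence. Of all 1181 precursors, 440 (37.3%) were above 0 in all 8 libraries and 400 (33.9%) were at 0 in all of them.

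Detection ranged from all libraries to none. Of the 10 precursors, 5 were above 0 in all 8 libraries (mir-126a, mir-126b, mir-150, mir-205 and mir-203), mir-200c and mir-200b were above 0 in 4 and 3 libraries, and mir-223, mir-144 and mir-200a were at 0 in every library. The same 5 passed the filter for testing (4 or more libraries with a linear value of 10 or higher), as did 359 (30.4%) of all 1181 precursors. They stand for 4 loci, since mir-126a and mir-126b repeat nearly the same reads. With a linear value of 10 as the limit, 1 precursor, mir-205, was detected in all 8 libraries.

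**Figure D1:**
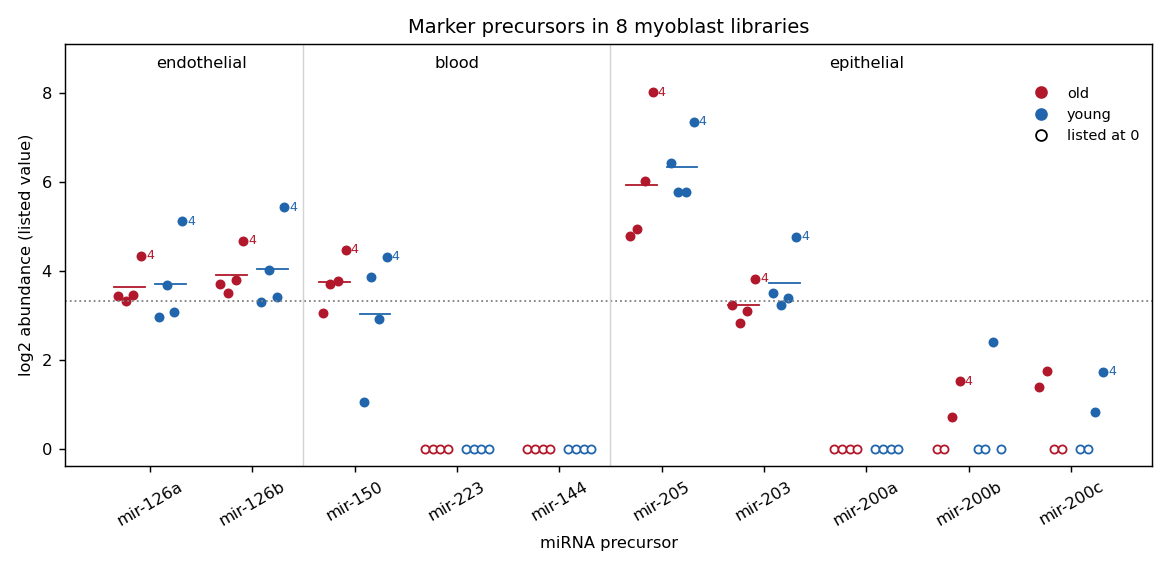
Listed log2 abundance of the 10 marker precursors, with 1 point per library (red old, blue young, open points listed at 0), bars at the group means of precursors above 0 in all libraries, a 4 beside old 4 and young 4, and a dotted line at a linear value of 10. mir-205 reaches 8.02, mir-126a, mir-126b, mir-150 and mir-203 stay at or below 5.43, and mir-223, mir-144 and mir-200a are at 0 throughout.

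The endothelial marker was present at a low level. mir-126a measured 3.43, 3.32, 3.46 and 4.34 in the old libraries 1 to 4 and 2.96, 3.68, 3.07 and 5.11 in the young libraries 1 to 4. These values correspond to 22, 19, 21 and 37 reads for old mice and 17, 30, 20 and 99 reads for young mice. Young 4 was highest and old 4 next, and the groups overlapped, with young 1 and young 3 below every old library. mir-126b ran from 3.29 in young 1 to 5.43 in young 4. It exceeded mir-126a by 0.18 to 0.33, where the ratio of their lengths alone gives 0.33, and its recovered reads were the same as those of mir-126a in 6 libraries. In old 1 and old 2, mir-126a had 1 and 2 reads more. The table therefore lists in effect 1 set of reads under both names, and which strand they came from cannot be read from it.

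Among the blood markers only mir-150 was above 0. It lies on chromosome 7 (45121757 to 45121821, plus strand) and overlaps no other gene in the GENCODE annotation. Its log2 abundance was 3.05, 3.71, 3.76 and 4.47 in the old libraries 1 to 4 and 1.04, 3.85, 2.91 and 4.32 in the young libraries 1 to 4. In reads, these were 15, 22, 23 and 36 for old mice and 4, 30, 16 and 51 for young mice. Young 1, with 4 reads (exact 95% Poisson interval 1.09 to 10.2, counting error only), was the lowest, the other 7 libraries held at least 15, and the groups overlapped. The myeloid mir-223, on chromosome X (96242817 to 96242926), was listed at 0 in 8 of 8 libraries, which allows at most 2 to 4 reads per library. The erythroid mir-144, on chromosome 11 (78073005 to 78073070), was also at 0 in all 8, with at most 1 or 2 reads.

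The other blood precursors fixed for comparison split in the same way. mir-451a lies 99 bases from mir-144 and gives the most abundant miRNA of red cells. It was above 0 in young 1 alone, at 0.89 or 4 reads, and mir-451b, on the opposite strand of the same bases, repeated these 4 reads. mir-142 and mir-142b, which overlap on opposite strands and mark blood cells of all kinds, were at 0 in every library, with at most 1 to 4 reads. mir-155, a miRNA of activated lymphocytes and macrophages that is also made outside blood, stood apart at 10.35 to 12.10, or 2727 to 11248 reads. It was thus abundant in libraries in which mir-142, mir-223 and mir-144 were all at 0. Old 4 at 12.04 and young 4 at 12.10 were its highest libraries, against 10.35 to 11.07 in the other 6.

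Epithelial markers gave the highest value of the whole set. mir-205, in an exon of the long noncoding RNA 4631405K08Rik on chromosome 1 (193507463 to 193507530, minus strand), measured 4.78, 4.93, 6.01 and 8.02 in the old libraries 1 to 4 and 6.43, 5.78, 5.76 and 7.35 in the young libraries 1 to 4. The reads behind it were 52, 54, 115 and 443 for old mice and 176, 120, 121 and 437 for young mice. Old 4 and young 4 were the highest, old 1 and old 2 the lowest, and the groups overlapped.

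mir-203, on chromosome 12 (112130880 to 112130955, plus strand), was lower and more even. It measured 3.23, 2.82, 3.09 and 3.82 in the old libraries 1 to 4 and 3.51, 3.23, 3.39 and 4.76 in the young libraries 1 to 4, that is 14 to 27 reads for old and 23 to 81 reads for young mice. Young 4 was again highest and old 4 next, and the groups overlapped.

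The miR-200 family was near or under the limit of detection. mir-200c was above 0 in old 1, old 2, young 3 and young 4, at 1.38, 1.74, 0.83 and 1.73, from 4 to 9 reads. mir-200b was above 0 in old 3, old 4 and young 3, at 0.71, 1.51 and 2.39, from 3 to 12 reads, and mir-200a was at 0 in all 8 libraries, with at most 2 or 3 reads allowed. Young 3 was the only library in which both mir-200b and mir-200c were above 0. Of the cluster partners, mir-429 was at 0 throughout. mir-141, the neighbour of mir-200c, was above 0 in old 4, young 2, young 3 and young 4, at 0.73, 2.11, 1.35 and 2.89, or 3 to 21 reads. Neighbouring precursors were therefore not detected together in every library: old 1 and old 2 listed mir-200c without mir-141, and old 4 and young 2 listed mir-141 without mir-200c.

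On the per-length scale mir-205 was the most abundant marker. Its mean linear value over the 8 libraries was 92.6, and it lay above the highest of the others in 8 of 8 libraries, by 2.11 ± 0.78 on the log2 scale (SD over the 8 libraries). The next 4 were close, with mean linear values of 17.9 for mir-126b, 14.4 for mir-126a, 12.6 for mir-150 and 12.2 for mir-203. mir-126a lay above mir-150 in 4 of 8 libraries (mean log2 difference 0.28 ± 0.77), and mir-150 above mir-203 in 4 of 8 (-0.09 ± 1.10), so neither of these neighbours in the order differed beyond the spread. mir-203 exceeded mir-200c in 8 of 8 libraries. Among precursors above 0 in the same library, mir-205 stood at percentiles 60.2 to 72.0, mir-126a at 39.1 to 58.5 and mir-203 at 35.1 to 55.8. mir-150 stood at percentile 13.1 in young 1 and between 38.0 and 55.4 in the other libraries.

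**Figure D2:**
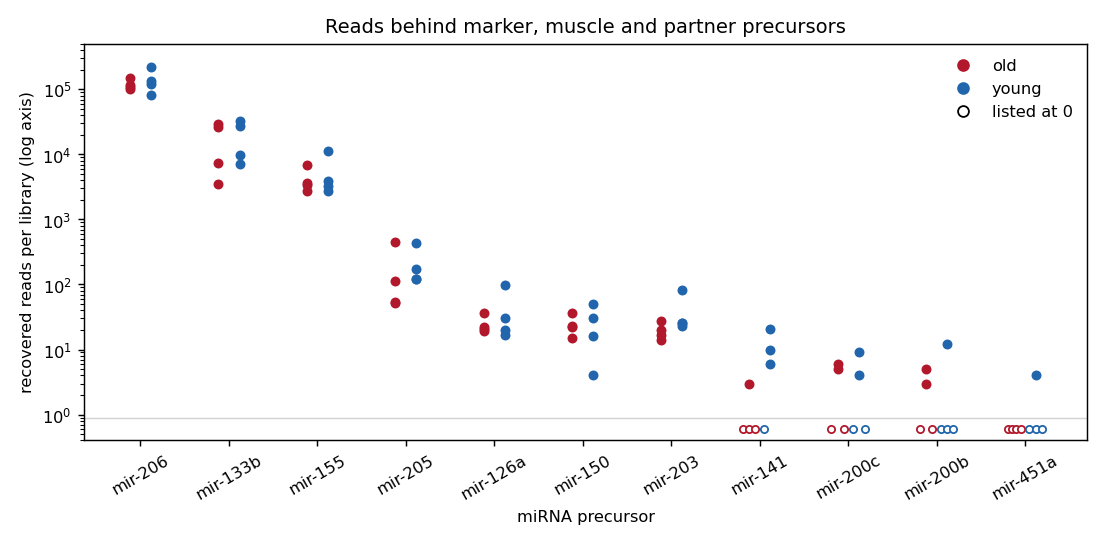
Recovered reads per library on a log axis for the muscle miRNAs mir-206 and mir-133b, for mir-155, for the markers above 0 (mir-126b, which repeats the reads of mir-126a, is left out) and for their partners mir-141 and mir-451a, with 1 point per library and open points for a listed 0. mir-206 lies between 80959 and 224398 reads and mir-205 between 52 and 443, while mir-200b and mir-200c do not exceed 12.

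Beside mir-206 and mir-133b these levels were small, but not beside every muscle precursor. mir-206, which is specific to skeletal muscle and rises as myoblasts differentiate, measured 14.78 to 16.52, or 80959 to 224398 reads, and mir-133b, from the same cluster, 10.17 to 13.28. All 11 listed muscle precursors were above 0 in at least 1 library, but 4 of them did not pass the filter, and the defining mir-1a-1 and mir-1a-2 reached at most 23 and 11 reads. mir-499 (4 to 111 reads) and mir-208b (at most 52) had mean linear values of 17.4 and 12.1, close to those of mir-126a, mir-150 and mir-203 and below that of mir-205. Counting mir-126a and mir-126b once and a listed 0 as 0, the markers together held 114, 115, 179 and 548 reads in the old libraries 1 to 4 and 223, 203, 199 and 677 reads in the young libraries 1 to 4. For each of these reads there were 1293, 962, 645 and 186 reads of mir-206 in the old libraries and 608, 603, 1128 and 120 in the young ones. Old 4 and young 4 thus held the least mir-206 per marker read in their groups.

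As reads per M library reads (RPM), the markers summed to 4.08, 4.42, 6.83 and 21.8 in the old libraries 1 to 4 and to 7.44, 6.32, 6.08 and 17.2 in the young libraries 1 to 4. Epithelial markers made up most of every sum, at 2.75 to 18.9 RPM, against 0.567 to 2.51 for the endothelial and 0.134 to 1.43 for the blood markers. These sums depend on the list, which holds 5 epithelial and 3 blood precursors, and do not rank the cell types. mir-155, which is not among the listed markers and is also made outside blood, stood at 84.8 to 285 RPM. mir-205 alone gave from 45.6% of the marker reads in old 1 to 80.8% in old 4. mir-486, listed here among the muscle precursors, held from 164100 RPM in young 4 to 579406 RPM in young 1, and its part in the RPM of the markers was not tested. mir-3107 stood at a similar level, with a mean log2 abundance of 21.9 in the old and 21.8 in the young group. For mir-486 these means were 21.4 and 21.3.

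**Figure D3:**
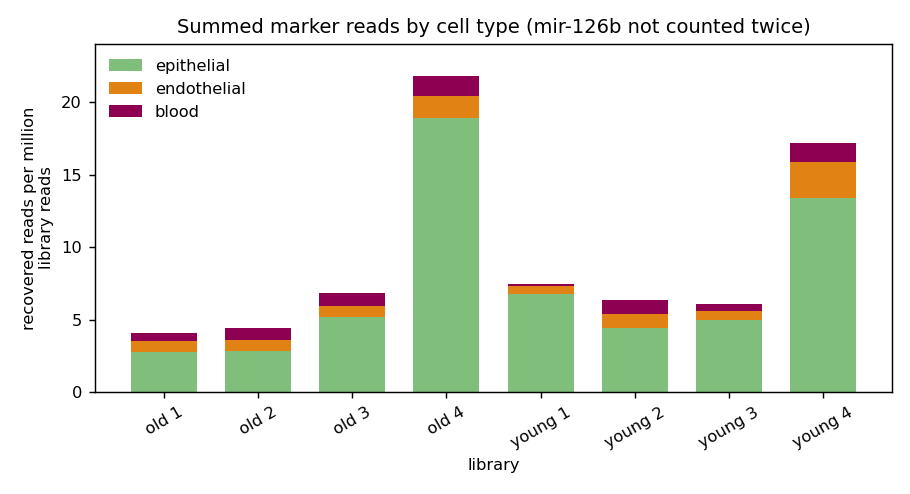
Recovered marker reads per M library reads (RPM) in each of the 8 libraries, stacked by the cell type the precursors mark, with mir-126b not counted a second time. Old 4 reaches 21.8 and young 4 reaches 17.2, and the other 6 libraries lie between 4.08 and 7.44, with the epithelial share the largest in each.

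The markers were then compared between old and young myoblasts. None of the 5 tested markers passed. In limma over all 359 precursors that passed the filter, 0% were called at an adjusted p of 0.05, and 4 (1.11%) had an unadjusted p under 0.05, none of them a marker. Voom on the recovered reads also called 0, with 4 at an unadjusted p under 0.05. The old and young libraries overlapped for 5 of 5 markers, while 0.836% of all tested precursors had groups that did not overlap. The median difference over all 359 was -0.05.

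mir-205 averaged 5.94 ± 1.49 over the old and 6.33 ± 0.75 over the young libraries (each SD with n = 4), a log2 difference of -0.40 with an SE of 0.75 (limma, adjusted p = 0.995, two-sided exact permutation p = 0.629). Its 95% interval ran from -2.07 to 1.28, so changes of more than 2-fold in either direction were not excluded. Without old 4 the difference was -1.09 and without old 1 it was -0.010. mir-150 averaged 3.75 ± 0.58 over the old and 3.03 ± 1.45 over the young libraries, a difference of 0.72 (95% interval -0.92 to 2.36, limma adjusted p = 0.995, exact permutation p = 0.429). That difference rested on the 4 reads of young 1, without which it was 0.054.

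mir-203 measured 3.24 ± 0.42 and 3.72 ± 0.70, a difference of -0.48 (95% interval -1.62 to 0.65, limma adjusted p = 0.995, exact permutation p = 0.371), and -0.14 without young 4. mir-126a measured 3.64 ± 0.47 and 3.71 ± 0.99, a difference of -0.068 (95% interval -1.37 to 1.23, limma adjusted p = 0.995, exact permutation p = 0.943). Its sign turned without old 1 (0.0017), without old 2 (0.038) and without young 4 (0.40). For mir-200c, which was not in the limma fit, the exact permutation p was 0.829. In all, 6 exact tests were made, two-sided and unadjusted, and 4 against 4 libraries can give none below 0.0286.

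**Figure D4:**
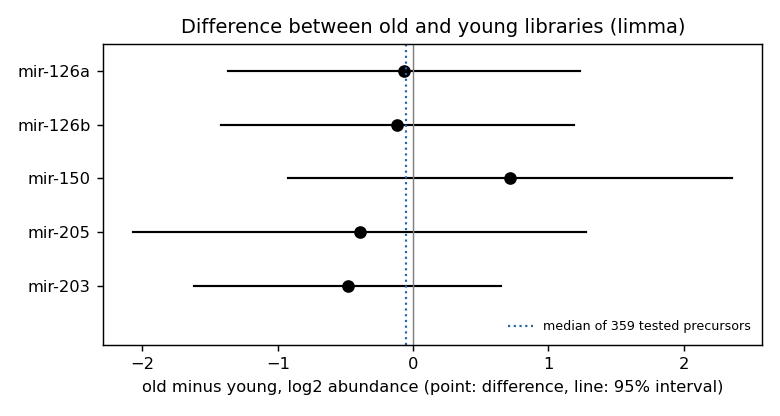
Difference between old and young libraries in log2 abundance for the 5 tested marker precursors (points) with the 95% interval of limma (lines), a solid line at 0 and a dotted line at the median of the 359 tested precursors, -0.05. Every interval spans 0, and that of mir-205 runs from -2.07 to 1.28.

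Set against mir-206 on the log2 scale, the summed linear values of all 10 precursors stood at -8.99 ± 1.17 for the old and -8.62 ± 1.42 for the young group (each SD with n = 4). For the epithelial precursors these ratios were -9.66 ± 1.43 and -9.13 ± 1.37, for the endothelial ones -11.12 ± 0.60 and -10.84 ± 1.68, and for the blood ones -12.16 ± 0.74 and -12.69 ± 1.95. The sums over all 10 and over the endothelial precursors count both mir-126a and mir-126b, which repeat nearly the same reads, so those ratios are raised. In old 1 the endothelial sum was 23.8 with mir-126b and 10.8 without it. Each difference between the groups was smaller than the SD within the group of young libraries, and each changed sign with 1 library left out. From -0.38 over all 10 it went to 0.30 without young 4, for the epithelial precursors from -0.53 to 0.12 and for the endothelial ones from -0.27 to 0.51 without the same library, and for the blood ones from 0.54 to -0.19 without young 1. With mir-126b left out and all libraries kept, the differences were -0.39 over all members and -0.25 for the endothelial ones.

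The highest values of the tested markers came from 2 of the 8 libraries, 1 old and 1 young, singled out here after their values were seen. Old 4 and young 4 were the 2 highest libraries for 5 of 5 tested markers, which is 4 of 4 loci, and for 119 of all 359 tested precursors (33.1%). The filter partly fixes this count. A linear value of 10 was reached by mir-126a, mir-150 and mir-203 in 5, 5 and 4 libraries. Without old 4 and young 4 these precursors would not have passed. The untested mir-200c was highest in old 2 and mir-200b in young 3. Relative to the mean of the other old libraries, old 4 was higher by 0.94 for mir-126a, 0.96 for mir-150, 2.78 for mir-205 and 0.77 for mir-203, where the median over all tested precursors was 0.39. Relative to the other young libraries, young 4 was higher by 1.87, 1.72, 1.36 and 1.38 in the same order, where that median was 0.82. The shift of mir-205 in old 4 was at percentile 98.9 of all tested precursors, and the shifts of mir-126a and mir-150 in young 4 were at 91.9 and 89.7. In old 4, mir-126a and mir-150 were at percentiles 75.8 and 78.3. mir-203 was at 67.4 in old 4 and 79.1 in young 4, and mir-205 at 78.3 in young 4. Over 4 other scalings the median lay between -0.099 and 0.021 in old 4 and between 0.095 and 0.41 in young 4. The shifts in old 4 were then 2.29 to 2.58 for mir-205, 0.44 to 0.80 for mir-126a, 0.47 to 0.96 for mir-150 and 0.28 to 0.71 for mir-203. In young 4 they were 0.64 to 1.26, 1.15 to 1.52, 0.995 to 1.25 and 0.66 to 0.96 in the same order.

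Most tested muscle precursors were at the lowest value of their group in these libraries. Old 4 was the lowest old library for 5 of the 7, against 18.9% of all tested precursors, and young 4 the lowest young library for 6 of the 7, against 18.1%, with both genes of miR-133a counted in each. In old 4 the margin was small for mir-206 (15.76 against 15.83 in old 2). It was also small for mir-133a-1 (12.94 against 12.99 in old 1) and mir-133a-2 (12.31 against 12.38 in old 1). mir-499, from an intron of a myosin heavy chain gene, was at 1.60 in old 4 against 3.95 to 4.60 in the other old libraries, and at 0.36 in young 4 against 3.45 to 5.42. mir-208b, also of a myosin gene, was at 0 in both. Young 1 came close to this, with 3 reads (0.38), while every remaining library held mir-208b at 3.8 to 4.57. A low mir-208b was therefore not limited to old 4 and young 4. mir-206 differed from the mean of the other libraries of its group by -1.26 in young 4 and -0.19 in old 4 as deposited, and by -2.07 to -1.78 and -1.05 to -0.65 over the other scalings. mir-133b was an exception in old 4, at 1.83, against -1.21 in young 4. The part of these shifts, and of library depth (the largest library being young 4 and the smallest old 4), in the marker values was not tested. The labels give nothing that old 4 and young 4 share besides the number.

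**Figure D5:**
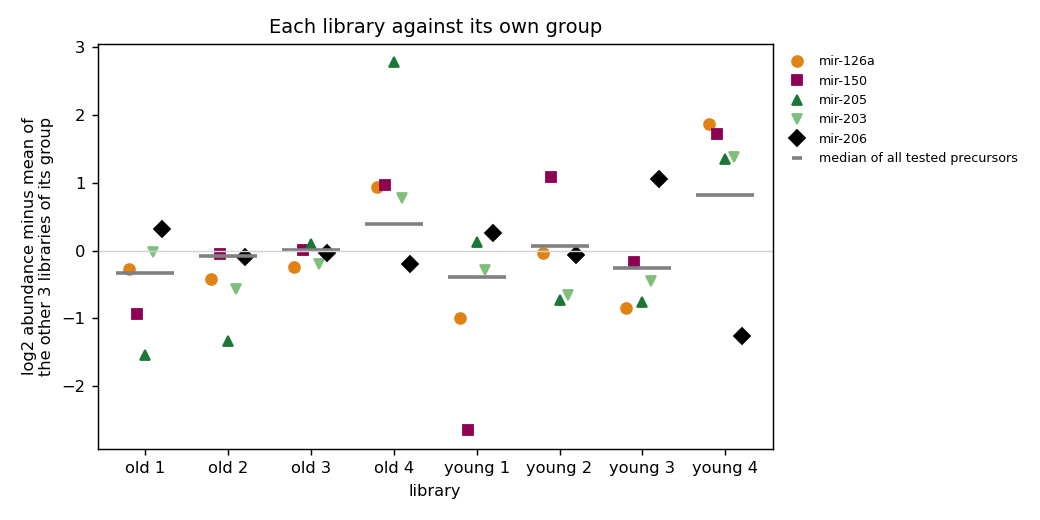
For each library, the log2 abundance of mir-126a, mir-150, mir-205, mir-203 and the muscle miRNA mir-206 minus the mean of the other 3 libraries of its group, with grey bars at the median of all 359 tested precursors. Markers lie above the median in old 4 and young 4, mir-150 falls to -2.65 in young 1, and mir-206 falls to -1.26 in young 4.

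The spread of the markers over the libraries was not unusual for this table. The range from lowest to highest library was 1.94 for mir-203, 2.15 for mir-126a, 3.24 for mir-205 and 3.43 for mir-150, against a median of 1.92 over the tested precursors, and the largest of these was at percentile 77.7. The precursors whose levels ran most like each marker over the 8 libraries were picked as the highest correlations over all tested precursors, so high coefficients are what the choice gives. They were mir-361 and mir-222 for mir-126a (Pearson's r = 0.969 and 0.965), mir-5132 and mir-194-1 for mir-150 (0.993 and 0.958), mir-34b and mir-30b for mir-205 (0.95 and 0.949), and mir-221 and mir-182 for mir-203 (0.882 and 0.863). For mir-126b, which repeats mir-126a, the same rule gave mir-30a and mir-101b (0.970 and 0.964). All of these share library and depth with the markers. mir-194-1 and mir-182 were highest in young 4 and next in old 4, as several markers were. For the others the order of the libraries was not checked.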

How the data were processed

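Small RNA of myoblasts from 4 old and 4 young mice was sequenced on an Illumina GAIIx after mirVana extraction, per the labels' protocols. The submitters' processing notes name BWA and mm10. For counting, trimming, strand and multiple matches, nothing is given in the sources used here. Values are log2, as deposited by the authors to 2 decimals with a floor at 0, for 1181 precursors whose arms are not separated. Reads were recovered as the linear value times precursor length (RefSeq, 1176 of 1181 matched) times the library size at which low values (up to 12 reads, 109 to 207 per library) were whole within 0.1 of a read. All of them were, the size having been chosen for the highest such share. With lengths shuffled 50 times and that size kept, 19.9% to 20.8% were whole. The size was not chosen anew for the shuffled lengths, so the 2 shares are not found in the same way. No scale is stated by the submitters, so reads rest on this reading.

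limma 3.58.1 (R 4.3.3, eBayes with trend) was fitted to the 359 precursors that reached a linear value of 10 in 4 or more libraries, with Benjamini-Hochberg adjustment and a threshold of 0.05. It was tested on simulated data. Exact permutation tests used the 70 arrangements of 4 against 4. Other steps ran in Python 3.11.15 (scipy 1.17.1, pandas 2.3.3, numpy 2.4.6, matplotlib 3.10.9). The members and lists were chosen with earlier results of these data known. A planned p for the summed level was therefore not computed. Every member and partner was named, with mir-206, mir-133b and the 2 precursors most correlated with each tested member. Alternatives were pseudocounts, filters, rescalings, limma settings, voom, the replicate number as a block, other references and each library left out. Leaving out both old 4 and young 4 was chosen after seeing the data.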

Additional observations from a re-analysis of the deposited data

Results flagged for a closer look

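mir-126a in old 4 was flagged because it lay above the other old libraries by an outlier rule. Its log2 abundance was 4.34, against 3.32 to 3.46 in old 1 to old 3, and its gap to the nearest of them was 0.863 of the group's range, above Dixon's 95% critical value of 0.829 for 4 samples. The value rested on 37 reads, with an exact 95% Poisson interval of 26.1 to 51.0. That interval overlaps those of old 1, old 2 and old 3, whose upper limits were 33.3, 29.7 and 32.1. mir-126b, with the same reads in old 3 and old 4 but 1 and 2 fewer in old 1 and old 2, gave 0.752 and did not pass. The check was made in 20 groups, of which 1 passed, and chance flags about 1 group in 20.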

How the results depend on the processing

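No marker was called in any of the 20 alternatives that kept markers in the fit, and no precursor of the table in any of 21. Requiring a mean of at least 100 left no marker to test. mir-150 (0.054 to 1.15), mir-203 (-0.68 to -0.14) and mir-205 (-1.09 to -0.010) kept their sign in all 20. The difference of mir-126a turned from -0.068 to 0.010 with TMM-type rescaling, 0.13 when libraries were scaled to a sum that left out mir-486 and mir-3107, 0.16 with array weights and 0.17 without both old 4 and young 4, and with single libraries left out it ran from -0.32 to 0.40 (0.0017 without old 1, 0.038 without old 2, 0.40 without young 4). That of mir-126b turned from -0.12 to 0.078, 0.10 and 0.097 in the scaling to that sum, with array weights and without both libraries, and ran from -0.37 to 0.35 with single libraries left out (0.021 without old 2, 0.35 without young 4). The cause was not tested. The count of markers detected in all 8 libraries fell from 5 to 1 when a linear value of at least 10 was required, by construction of that limit. The differences in summed level relative to mir-206 moved by less than the spread between libraries under all alternatives run, although each changed sign with young 4 or, for blood, young 1 left out, and the endothelial one also against the sum as reference (0.10) and without both old 4 and young 4 (0.22). With the replicate number as a block, 0 markers and 0 of 359 precursors passed in limma, 39 of 359 having an unadjusted p under 0.05 against 4 without it. Same-numbered libraries deviated from their group means with correlations of -0.064, 0.43, 0.66 and 0.58, so 3 of 4 pairs deviated together, each library in them correlating best with its own number, and old 1 and young 1 did not. The numbers were not taken to pair the samples because the labels give no pairing, and the block was run only as an alternative. Depth limits the markers: all but mir-205 rest on 99 reads or fewer per library, and a listed 0 cannot be told from up to 4 reads.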

Other observations

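Precursors typical of other epithelia and glands, described here only by their levels, were not uniformly low. Of 9 on that list 7 were above 0 in all 8 libraries and 6 passed the filter, against 37.3% and 30.4% of all 1181 precursors. mir-192, a miRNA of gut, liver and kidney epithelium, measured 7.91 to 8.99, or 569 to 1784 reads, above mir-205 in each group's mean (8.29 ± 0.42 for the old and 8.37 ± 0.52 for the young group, each SD with n = 4). On the same list, mir-194-1 and mir-194-2 measured 3.45 to 5.40 and 3.95 to 5.72. The liver miRNA mir-122 was above 0 in 3 libraries, with at most 15 reads, and mir-375, a miRNA of pancreatic islets and other secretory epithelium, held 4 to 17 reads in every library. The sensory-organ and epithelial precursors mir-183 and mir-182 were abundant in every library, at 13.36 to 17.14 and 13.30 to 17.36, while their cluster neighbour mir-96 measured 3.58 to 7.69. mir-215 was above 0 in 1 library, at 1.95.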
